A study of Mus musculus with 12 samples.

Results

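Spermatids were compared with pachytene spermatocytes, the cells after and before the meiotic divisions, in 8 of the 12 arrays of a series on sorted mouse germ cells. The arrays were chosen by their cell type labels and comprised 4 arrays of spermatids (ST) and 4 of pachytene spermatocytes (RP, mid-late pachytene and diplotene), with 2 arrays of each population from PWD (PWD/Ph) and 2 from B6 (C57BL/6J) males. B6 is the common laboratory strain, whose genome is largely that of *M. m. domesticus*, and PWD was bred from *M. m. musculus* mice caught in the wild. The mice were 8 to 10 weeks old, the cells were isolated from dispersed testes by fluorescence-activated cell sorting, and between 15 and 40 ng of total RNA a sample were amplified in a 2-cycle protocol before hybridization. The remaining 4 arrays, of prepachytene spermatocytes, entered no contrast, but they entered the estimate of the spread and the means over 12 arrays by which the probeset of a gene and the genes above the background level were chosen. According to the series' design text the duplicates came from 2 animals, but the labels do not tie a replicate to an animal, so that p-values measure the spread between the sorted samples, which may partly be technical.

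Pachytene spermatocytes are in meiotic prophase, in which homologous chromosomes are held together by the synaptonemal complex and exchange DNA at crossovers, and in which the X and Y chromosomes are transcriptionally silenced. After the meiotic divisions, haploid round spermatids build the acrosome, a secretory vesicle with the enzymes and membrane proteins for fertilization, and the flagellum, and then replace histones by transition proteins and protamines. Because transcription stops when the nucleus condenses, many transcripts of spermatids are stored and translated later.

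The measurement was log2 expression, so that a log fold-change of 1 is a factor of 2 in signal. In such bulk samples fewer cells of a type and less RNA per cell cannot be told apart, and every value is relative to the other transcripts of the array. Of 45037 probesets tested with limma, 5465 (12.1%) were higher and 8292 (18.4%) lower in spermatids at an adjusted p under 0.05. Read at 1 probeset a gene, 3317 of 18193 genes (18.2%) were higher and 4332 (23.8%) lower. The median log fold-change was 1.85 over the genes that were higher and -1.28 over those that were lower, 0.01 over all genes, and -0.21 over the 10480 genes whose mean over the 12 arrays exceeded a background level of 4.12. This level is the 95th percentile of 67 probesets of genes of other organs. Among these 10480 genes, 25.6% were higher and 39.3% lower. Centring the arrays on the probesets above the background level shifted the median log fold-change of all genes to 0.25 and the counts to 8654 higher and 3824 lower, so that changes of this size depend on the scaling.

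**Figure D1:**
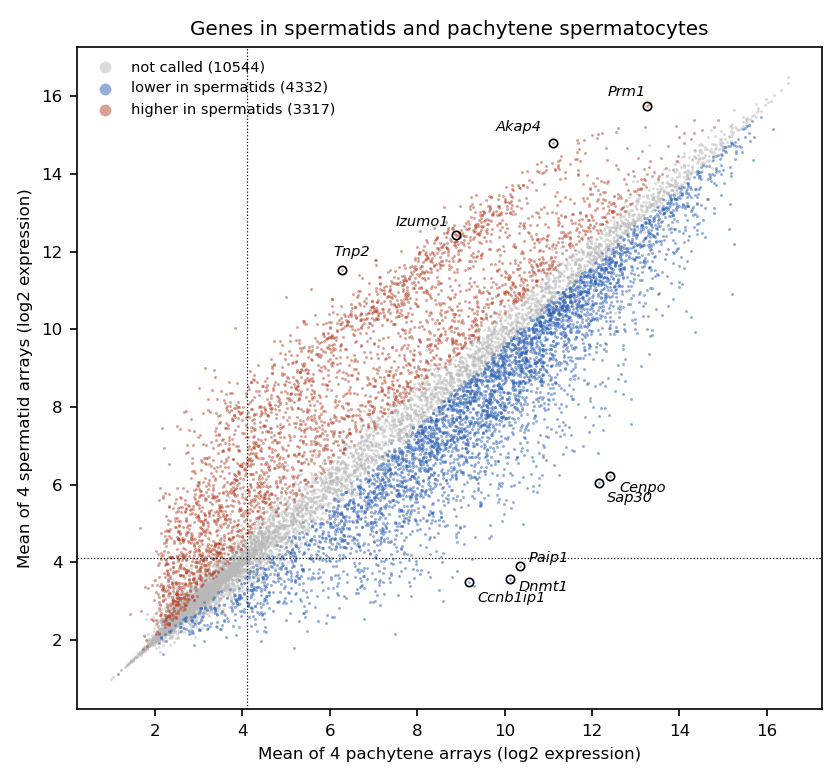
Mean log2 expression of 18193 genes in 4 pachytene arrays (horizontal axis) and 4 spermatid arrays (vertical axis), with the 3317 genes higher in spermatids in red, the 4332 lower in blue, the others in grey, and dotted lines at the background level of 4.12. Many red points lie in a band between 3 and 4 log2 units above the diagonal, where 749 genes were found against 638 between 2 and 3, whereas the blue points thin out away from it (675 between 2 and 3 and 246 between 3 and 4).

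In the deposited scaling the losses were more numerous and the gains were larger, whereas under centring the gains were also more numerous. Centring moved the median of all genes to 0.25, genes under the background level included. A fit in the deposited scaling on probesets above this level over the 12 arrays only gave 2879 genes higher and 4420 lower. In spermatids 914 genes (5.02%) were higher and 347 (1.91%) lower by at least 3 on the log2 scale. Of the 914 genes, 749 (81.9%) had a log fold-change between 3 and 4, and of the 347 genes 246 (70.9%). The higher genes between 3 and 4 outnumbered the 638 between 2 and 3, whereas 675 lower genes fell by 2 to 3 and 1728 by 1 to 2. The pachytene mean lay under the background level in 981 (29.6%) of the genes that were higher, and the spermatid mean in 477 (11.0%) of those that were lower. Near its lower limit the array cannot give the size of a change, so that for these genes it is approximate. Among the called genes named here, this applied to *Rhox5*, *Cldn11*, *Csf1r*, *Cyp17a1*, *Sohlh2*, *Lrrc52*, *Cdk16*, *Sp3*, *Trim42*, *Fbxo24*, *Epg5*, *Cox7c*, *Agpat2*, *Elovl6*, *Gpat3*, *Nsdhl*, *Ebp*, *Nqo2*, *Hormad2*, *Smc1a*, *Ccnb1ip1*, *Palb2*, *Eme1*, *Dmc1*, *Ccna2*, *Sgo2a*, *Nsl1*, *Cenpi*, *Timeless*, *Orc1*, *Scml2*, *Kat6b*, *Dnmt1*, *Dnmt3a*, *Dnmt3l*, *Rbmx*, *Nxf2*, *Tnpo2*, *Ipo8*, *Paip1*, *Rps4x*, *Xbp1*, *Dact1*, *Rbpj*, *Fasl*, *Nlrc5*, *Brcc3*, *Magea7-ps*, *Med12*, *Usp9y* and *G6pd2*.

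Spermatid markers followed the labels, with RNA of spermatid genes present in both populations. By the paper's account of the sorting, each sorted population also held a minority of other cells. How far RNA of such cells entered the levels and the sizes of the changes was not tested. Markers of pachytene spermatocytes as a set did not separate the populations. All 25 measured spermatid markers were above the background level on each of the 8 arrays, and all 25 were higher in spermatids, by 1.38 to 5.25, with *Cst13* (4.27) and *Lelp1* (4.11) among the largest. On the log2 scale, the summed level of these markers was 15.40 to 16.29 on the pachytene arrays and 18.13 to 18.77 on the spermatid arrays, with the highest pachytene value on PWD replicate 1. Without this array 3091 genes were higher and 4390 lower, and all 25 markers remained higher. Of 18 markers of pachytene and diplotene spermatocytes, 6 were lower and 4 higher in spermatids, and their summed level overlapped between the populations, with 17.63 to 18.24 in pachytene and 17.70 to 18.08 in spermatids. The 6 lower markers were *Pou5f2* (-5.33), a POU-domain factor of spermatocytes, *Piwil1* (-3.58), *Mybl1* (-2.02), *Ovol1* (-1.97), *Aurkc* (-1.92) and *Ccdc62* (-0.60). The 4 higher ones included *Spag6* (3.32), *Cdc25c* (2.55) and *Crem* (1.14). Of 16 Sertoli cell markers, 7 were higher in spermatids and 0 lower, with 9 to 11 of them above the background level on the spermatid arrays and 8 to 9 on the pachytene arrays. Their summed level was 9.25 to 9.87 in pachytene and 10.43 to 11.71 in spermatids, and the higher ones were *Amhr2* (2.20), *Clu* (1.82), *Ctsl* (1.54), *Aard* (1.42), *Vim* (1.33), *Rhox5* (1.05) and *Cldn11* (0.89), whereas *Amh* (0.00), *Fshr* (0.00) and *Wt1* (0.34) were under the background level in both. Of 19 markers of peritubular, vascular and blood cells 4, *Vwf* (2.35), *Acta2* (1.65), *Csf1r* (1.52) and *Adgre1* (1.16), were higher and 0 lower, with summed levels of 8.18 to 8.61 and 9.12 to 10.51, and of 6 Leydig cell markers 1, *Cyp17a1* (1.57), was higher, a call lost when any 1 of 10 arrays was left out. Of 15 spermatogonial markers 2, *Rhox13* (2.52) and *Sohlh2* (1.60), were higher and 2, *Id4* (-4.31) and *Dmrtb1* (-0.64), lower. Of 17 prepachytene markers 5 were higher, among them *Rec8* (3.64), and 8 lower, among them *Meioc* (-2.04), a factor of meiotic entry. Without PWD spermatids replicate 2, or without either PWD prepachytene array, 4 spermatogonial markers were higher. Under centring 14 Sertoli cell markers, 14 peritubular, vascular and blood cell markers, 5 Leydig cell markers and 6 spermatogonial markers were higher. Centring moved the median log fold-change of all genes to 0.25. On the spermatid arrays only 3 to 4 of the 19 peritubular, vascular and blood cell markers and 0 to 1 of the 6 Leydig cell markers were above the background level. Most calls of these 2 lists under centring thus lay under that level. The somatic and spermatogonial markers moved with the comparison, and their part in the results was not tested.

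The genes with the largest changes on both sides of the background level were taken among genes with a probeset above the background level in both populations and with no overlap between the 4 spermatid and 4 pachytene arrays, which were 2097 in the higher and 3194 in the lower direction. At the upper end stood *Nudt16l2* (5.82), *Ubqlnl* (5.48), a ubiquilin-like gene, *Tnp2* (5.25), the transition protein that precedes protamines, *Dusp21* (4.96), a dual-specificity phosphatase, *Clmn* (4.82), calmin, *Tex55* (4.81), *Azin2* (4.80), antizyme inhibitor 2 of polyamine metabolism, *Prkcd* (4.76), a protein kinase C, *Oxct2a* (4.74), a testis enzyme of ketone body use, *Bpifa3* (4.73), *Fscn3* (4.73), a testis fascin, *Paqr5* (4.73), a membrane progestin receptor, *Usp12* (4.71), a deubiquitinase, and *Utp14a* (4.73), a factor of ribosome biogenesis encoded on Chr X. The other 6 were *1700016C15Rik* (4.76), *4921507P07Rik* (4.71), *4933400A11Rik* (4.69), *4933416I08Rik* (4.77), *Gm21283* (4.85) and *Ica1*, which had 4.76 in this probeset and 3.99 in its brightest. At the lower end stood *Cenpo* (-6.20), a kinetochore protein, *Sap30* (-6.10), a subunit of the Sin3 deacetylase complex, *Sec23a* (-5.45) of the COPII coat, *Pou5f2* (-5.33), *Gtf2e1* (-4.99) and *Taf2* (-4.81) of the basal transcription machinery, *Exoc8* (-4.94) of the exocyst, *Klhl9* (-4.90), a Cullin-3 adaptor, *Rbm27* (-5.02), *Tmem185b* (-5.01), *Ccdc77* (-4.82), *4930579G24Rik* (-5.33) and *4931408D14Rik* (-4.83). The other 7 entered through a probeset other than their brightest, which was used for the counts and changed less. In these probesets *Wbp4*, a splicing factor, had -5.60 against -0.40 in the brightest, *Siah1a*, a ubiquitin ligase, -5.32 against -3.83, *Smarca5*, the ISWI ATPase, -4.87 against -0.55, *Mgll*, monoglyceride lipase, -4.93 against -4.60, *Arhgap20* -4.92 against -1.65 and *Lyrm9* -4.83 against -3.66. *Ppm1b*, a protein phosphatase, had -4.97 in one probeset, while its brightest was not called (0.37).

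Probesets of 1 gene can read different transcript ends. Of 4015 genes with at least 2 probesets above the background level, 389 (9.69%) had probesets called in opposite directions, 869 (21.6%) had a probeset higher and none lower, and 2117 (52.7%) the reverse. Of the called genes named, 30 (*Atg12*, *Bcas2*, *Bet1*, *Brwd1*, *Bub1*, *Cpeb4*, *Crem*, *Dazl*, *Dnah1*, *Gsk3b*, *Hspa4l*, *Hydin*, *Ipo5*, *Kif2c*, *Kpna6*, *Mdm2*, *Mtfr1*, *Nup50*, *Odf2*, *Pfkfb2*, *Psme3*, *Psmf1*, *Rnf138*, *Rnf17*, *Sox6*, *Sun1*, *Tor1aip1*, *Ube2b*, *Ube2j1* and *Wee1*) had another probeset called in the other direction, so that their direction holds only for the brightest probeset.

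Promoters of genes from both ends differed in a feature that did not enter the comparison, the number of CG pairs. The 250 bases upstream of the annotated start are shown for 4 genes of different sperm structures that were higher in spermatids and for the genes with the lowest and second lowest log fold-change above, 5′ to 3′ on the strand of the gene, with each CG pair in capitals. *Tnp2* encodes transition protein 2, *Smcp* a protein of the mitochondrial sheath, *Akap4* the main anchoring protein of the fibrous sheath and *Izumo1* the sperm protein that binds the egg before fusion. The sequences are those of RefSeq on GRCm38.p6, in which 14452 of the 18193 genes were found, and lie at chr16:10788656-10788905 (Tnp2, minus strand), chr3:92589074-92589323 (Smcp, minus strand), chrX:7067265-7067514 (Akap4, plus strand), chr7:45621561-45621810 (Izumo1, plus strand), chr12:4233966-4234215 (Cenpo, minus strand) and chr8:57487861-57488110 (Sap30, minus strand).
Tnp2: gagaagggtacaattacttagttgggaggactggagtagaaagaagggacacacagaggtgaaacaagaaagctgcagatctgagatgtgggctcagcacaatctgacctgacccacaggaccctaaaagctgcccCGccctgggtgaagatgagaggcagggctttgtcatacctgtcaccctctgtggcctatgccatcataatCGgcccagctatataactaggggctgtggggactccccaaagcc
Smcp: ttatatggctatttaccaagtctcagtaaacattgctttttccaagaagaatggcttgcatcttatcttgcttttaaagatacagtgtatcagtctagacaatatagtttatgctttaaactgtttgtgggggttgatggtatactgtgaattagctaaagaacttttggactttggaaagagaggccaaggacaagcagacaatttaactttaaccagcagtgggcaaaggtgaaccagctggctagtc
Akap4: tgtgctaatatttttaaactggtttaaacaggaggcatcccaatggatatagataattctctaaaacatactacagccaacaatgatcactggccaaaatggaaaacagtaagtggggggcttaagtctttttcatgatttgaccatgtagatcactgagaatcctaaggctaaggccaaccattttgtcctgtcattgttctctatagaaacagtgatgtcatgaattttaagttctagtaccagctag
Izumo1: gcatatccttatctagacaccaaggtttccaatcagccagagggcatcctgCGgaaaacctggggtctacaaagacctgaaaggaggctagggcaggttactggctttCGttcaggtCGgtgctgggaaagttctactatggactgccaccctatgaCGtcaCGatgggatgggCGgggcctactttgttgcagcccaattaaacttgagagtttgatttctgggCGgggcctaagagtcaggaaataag
Cenpo: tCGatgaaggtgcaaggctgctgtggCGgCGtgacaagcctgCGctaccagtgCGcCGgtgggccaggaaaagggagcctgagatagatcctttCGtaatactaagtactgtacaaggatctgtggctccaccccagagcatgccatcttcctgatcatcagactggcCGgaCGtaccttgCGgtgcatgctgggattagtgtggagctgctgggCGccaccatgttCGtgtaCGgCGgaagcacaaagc
Sap30: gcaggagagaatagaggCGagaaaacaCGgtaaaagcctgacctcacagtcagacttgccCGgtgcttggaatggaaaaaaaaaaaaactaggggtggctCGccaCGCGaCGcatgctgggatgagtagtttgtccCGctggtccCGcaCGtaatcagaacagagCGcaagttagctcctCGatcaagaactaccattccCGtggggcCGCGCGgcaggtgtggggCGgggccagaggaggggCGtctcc
These 6 sequences held 2 (*Tnp2*), 0 (*Smcp*), 0 (*Akap4*), 7 (*Izumo1*), 14 (*Cenpo*) and 18 (*Sap30*) CG pairs. Over all 14452 promoters the median was 13, and 27.7% held 5 or fewer. Over the 8605 promoters of genes above the background level the median was 16, and 15.3% held 5 or fewer. Of the 2706 genes higher in spermatids 34.2% had 5 or fewer CG pairs (median 11), and of the 3548 lower genes 9.02% (median 17). Among genes higher by at least 2 (8.53% of all genes) the share was 44.8% (median 7), and among genes lower by at least 2 (5.62%) it was 8.23%. Within genes above the background level the median stayed between 16 and 18 CG pairs for every class of log fold-change up to 2, and was 12 for 2 to 3 and 5 above 3. Lists of sperm structures had few CG pairs, with medians of 4.5 for the acrosome and 2.5 for the sheaths and fibres of the tail, against 19 for splicing factors and for the piRNA pathway. The CG count was chosen after values were seen and is a description.

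**Figure D2:**
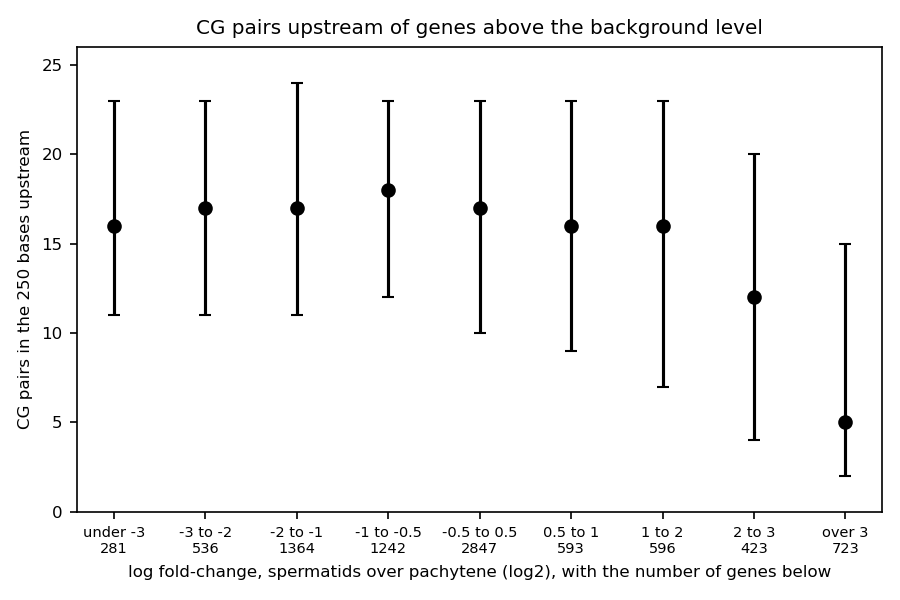
Number of CG pairs in the 250 bases upstream of genes above the background level (vertical axis, points are medians and bars run from the 25th to the 75th percentile) by class of log fold-change between spermatids and pachytene spermatocytes (horizontal axis). The median is 16 to 18 in each class up to a log fold-change of 2 and falls to 12 and 5 in the upper 2 classes.

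Short motifs, searched on both strands of the same 250 bases, gave smaller contrasts. The full cAMP response element TGACGTCA was found in 2.77% of the promoters of higher genes, 3.07% of those of lower genes and 2.27% of all. The X-box half-site GTTGCC, part of the site of RFX factors, was found in 14.2% of higher, 10.1% of lower and 10.6% of all promoters, and in 15.7% of those of genes higher by at least 2. The TATA box TATAAA was found in 7.91%, 5.61% and 9.02%, the A-MYB core CAACTG in 9.20%, 9.16% and 9.57%, and CCAAT in 35.9%, 38.1% and 35.7%. Among genes above the background level the shares were 2.96% for TGACGTCA, 11.5% for GTTGCC, 6.21% for TATAAA, 8.88% for CAACTG and 37.2% for CCAAT. For TATAAA the share of higher genes was thus under that of all promoters but over that of genes above the background level. For TGACGTCA it was over the former and under the latter. Of the 6 promoters shown, that of *Izumo1* held the cAMP response element and CCAAT, and that of *Akap4* held CCAAT. A match is only a match of letters.

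**Figure D3:**
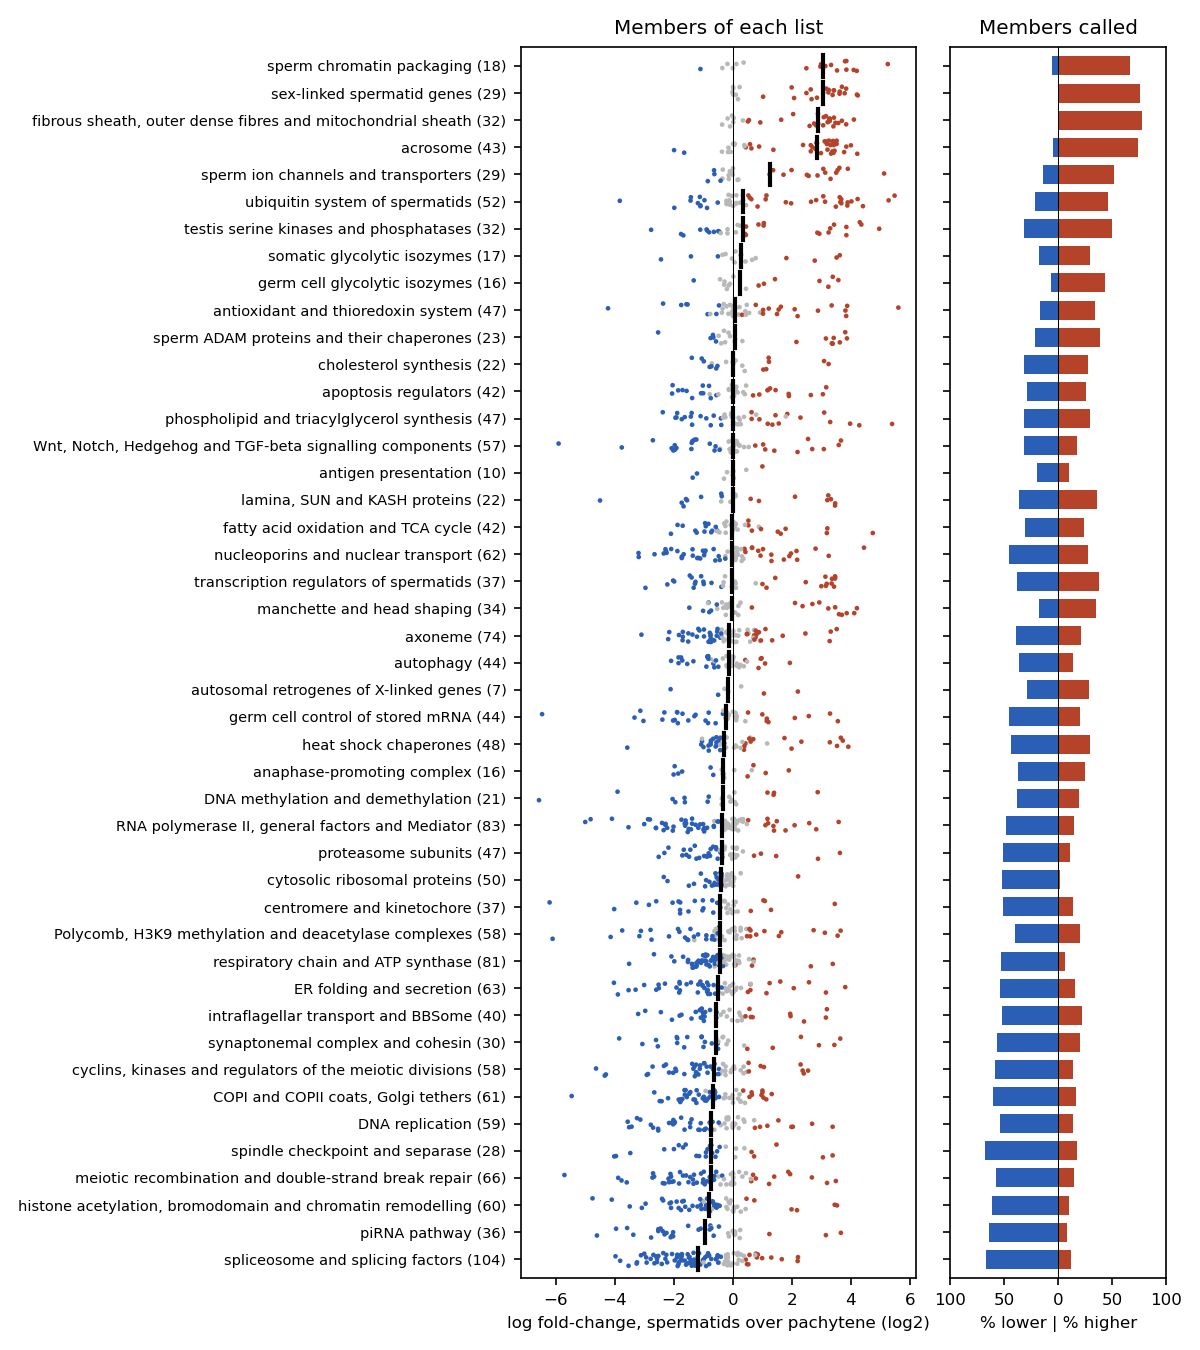
Log fold-changes (log2, horizontal axis of the left panel) of the members of 45 gene lists, ordered by the median (black bar), with members higher in spermatids in red, lower in blue and not called in grey, and the number of measured members in parentheses. The right panel gives the percentage of members called higher (right) and lower (left), and shows chromatin packaging, acrosome, tail sheath and sex-linked spermatid genes at the top and splicing, piRNA, chromatin remodelling and recombination genes at the bottom.

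The shares of list members that were called are read against those of the genes above the background level, 25.6% higher and 39.3% lower, since most members were above it. In 9 of the 45 lists the share of higher members was over 1.5 times that of these genes. It was 78.1% for the tail sheaths and fibres, 75.9% for sex-linked spermatid genes, 74.4% for the acrosome, 66.7% for chromatin packaging, 51.7% for ion channels and transporters, 16 of 32 members for kinases and phosphatases, 46.2% for the ubiquitin system, 43.8% for germ cell glycolytic isozymes and 39.1% for ADAM proteins. The share of lower members was over 1.5 times that of these genes in 5 lists, with 67.9% for the spindle checkpoint, 67.3% for splicing, 63.9% for the piRNA pathway, 61.7% for histone acetylation and remodelling and 60.7% for COPI and COPII coats. In a further 11 lists, in which it was over 1.2 times, it was 48.2% to 58.6%, with 2.0% to 22.5% higher. They were intraflagellar transport, proteasome, ribosomal proteins, respiratory chain, synaptonemal complex, recombination, meiotic divisions, centromere, replication, RNA polymerase II and ER folding. In the other 20 lists 10.0% to 37.8% were higher and 17% to 45.5% lower. The limits were unequal, 1.2 times for lower and 1.5 times for higher members. Higher shares between these limits were thus left among the 20. They were those of transcription regulators (37.8%), lamina and its partners (36.4%), manchette and head shaping (35.3%) and antioxidant genes (34.0%). For these 20 lists the members are described and the counts are no result about the list. The share of the sex-linked spermatid genes is to be read against X-linked genes above the background level, of which 63.5% were higher.

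Genes of sperm chromatin packaging were mostly higher in spermatids. Of 18 measured members 12 were higher and 1 lower in spermatids, with a median log fold-change of 3.06, against 18.2% and 23.8% of all genes. The transition proteins and protamines, basic proteins that replace histones in this order, were all higher, and *Tnp2*, *Tnp1* and *Prm2* had the largest log fold-changes of the list. *Tnp2* was at 6.06 and 6.13 in B6 and 6.68 and 6.28 in PWD in pachytene arrays, and at 12.15 and 12.13 in B6 and 10.67 and 11.19 in PWD in spermatid arrays. All spermatid values exceeded all pachytene values, and PWD spermatids had lower values than B6 spermatids (log fold-change 5.25, standard error 0.17, adjusted p = 8.7e-07 from limma). *Prm1* was at 12.90 and 12.78 in B6 and 13.45 and 13.88 in PWD before and 15.81 and 15.94 in B6 and 15.34 and 15.89 in PWD after the divisions (log fold-change 2.49, standard error 0.14, adjusted p = 6.4e-06 from limma). Its groups did not overlap, although *Prm1* was already high in pachytene samples. *Tnp1* rose by 4.20, *Prm2* by 4.10 and *Prm3*, whose acidic product is cytoplasmic, by 3.80. The spermatid linker histones *H1f7* (3.33) and *Hils1* (2.99), the variant *H2bl1* (3.85), the kinase *Tssk6* (3.85), which is needed for histone removal, the remodeller *Chd5* (3.14) and *Cdyl* (3.53) rose with them. Factors of histone removal that did not pass the test were *Brdt* (0.00), a bromodomain protein that binds acetylated histones, *Psme4* (0.12), a proteasome activator, and *Phf7* (-0.18). *Rnf8* (-1.09), a ligase that ubiquitinates histones, was the 1 member that fell.

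**Figure D4:**
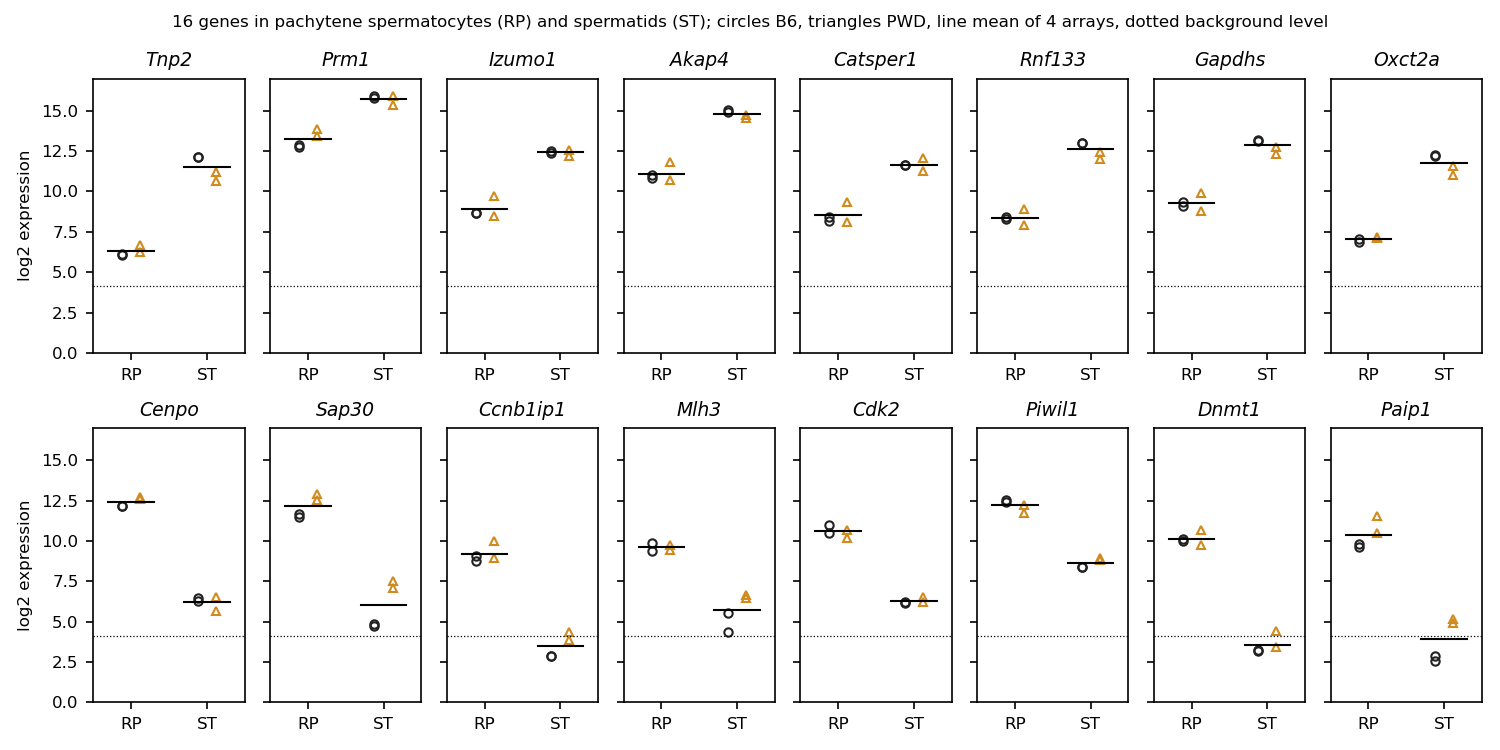
Log2 expression of 16 genes on each array of pachytene spermatocytes (RP) and spermatids (ST), with B6 as circles, PWD as triangles, a line at the mean of 4 arrays and a dotted line at the background level of 4.12. The 8 genes of the upper row are higher and the 8 of the lower row lower in all 4 spermatid arrays than in all 4 pachytene arrays.

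Genes of the acrosome were mostly higher. Of 43 members 32 were higher and 2 lower (median 2.84). *Izumo1* was at 8.70 and 8.67 in B6 and 9.74 and 8.48 in PWD in pachytene and at 12.39 and 12.54 in B6 and 12.19 and 12.55 in PWD in spermatids (log fold-change 3.52, standard error 0.26, adjusted p = 2.2e-05 from limma). The populations did not overlap, and PWD pachytene replicate 1 had the highest of the pachytene values. Further members of the list rose as well, with *Spaca6* (4.00), *Spaca1* (2.70) and *Izumo3* (3.21), and so did the hyaluronidases *Spam1* (3.39) and *Hyal5* (3.52) and the protease-like *Prss37* (4.22) and *Prss55* (3.85), *Spaca7* (3.77) and the acrosomal antigen *Acrv1* (3.26). The matrix proteins changed less, with *Acr* (0.63), proacrosin, and *Zpbp* (0.44), which rose by under 1, and *Acrbp* (0.07), which binds proacrosin and had means of 11.74 in pachytene and 11.81 in spermatids. The members that fell were *Gopc* (-1.99), a Golgi protein needed for acrosome formation, and *Izumo4* (-1.64).

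Genes of ADAM proteins, adhesion and protease-like proteins of the sperm surface, went in both directions. Of 23 genes of these proteins and their chaperones 9 were higher and 5 lower (median 0.07). The testis-specific *Adam25* (3.87), *Adam6a* (3.63), *Adam26a* (3.42), *Adam6b* (3.38) and *Adam24* (3.36) rose, and several of these are near copies of one another whose probes could share signal. *Adam2* (-0.67), fertilin beta, fell slightly and *Adam3* (0.07), needed for migration into the oviduct, had means of 15.16 and 15.23, and *Adam1a* (0.08), fertilin alpha, did not pass the test. Of the ER chaperones that mature them, *Calr3* (3.81) and *Pdilt* (3.16) rose, while *Clgn* (-0.26) had means of 14.90 and 14.64. *Tex101* (-2.53), a surface protein required for ADAM3, fell, as did *Rnase10* (-0.75).

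Genes of the accessory structures of the sperm tail were higher in each called member. Of 32 genes of the fibrous sheath, outer dense fibres and mitochondrial sheath 25 were higher and 0 lower (median 2.89), and the remaining 7 did not pass the test, of which 1 was called lower when either PWD prepachytene array was left out. *Akap4* was at 11.03 and 10.85 in B6 and 11.82 and 10.72 in PWD in pachytene and at 15.03 and 14.94 in B6 and 14.53 and 14.72 in PWD in spermatids (log fold-change 3.70, standard error 0.24, adjusted p = 1.0e-05 from limma). Again all spermatid values were above all pachytene values. *Akap3* (2.82), *Cabyr* (3.28) and *Ropn1* (3.08) of the fibrous sheath, *Odf1* (2.90) and *Odf2* (0.51) of the outer dense fibres, *Smcp* (3.21) of the mitochondrial capsule, *Spata3* (4.10), *Spem1* (3.48), *Armc12* (3.43) and the sperm thioredoxins *Txndc2* (3.84) and *Txndc8* (2.89) were higher. *Gpx4* (0.03), the selenoprotein of the mitochondrial capsule, was at a mean of 14.62 in pachytene and 14.65 in spermatids.

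Genes of the axoneme and of the transport system that builds it went in both directions. Of 74 axonemal genes 16 (21.6%) were higher and 29 (39.2%) lower (median -0.11), close to the 25.6% and 39.3% of all genes above the background level, and the majority turned under centring (29 higher, 23 lower). The lower genes included *Dnaaf4* (-3.09), a dynein assembly factor, *Spef1* (-2.19) of the central apparatus, the dynein heavy chains *Dnah2* (-2.15), *Dnah1* (-1.70) and *Dnah8* (-1.21), and *Hydin* (-0.72). The higher ones included *Efhc2* (3.52) and *Ribc1* (3.28), inner proteins of the doublet microtubules, *Spag6* (3.32) of the central pair, *Iqca* (2.46) and *Tekt2* (1.69), a tektin. *Spag16* (-0.12) did not pass the test and *Dnah17* (0.01) was under the background level. Of 40 genes of intraflagellar transport and the BBSome, 9 were higher and 21 lower (median -0.55). *Ift20* (-2.06), *Ift140* (-1.01) and *Ift88* (-0.55) of the transport particles, *Traf3ip1* (-3.20) and the BBSome subunits *Ttc8* (-2.96) and *Bbs1* (-2.43) fell, *Ift172* (-0.40) did not pass the test, and *Bbs5* (3.19), *Bbs12* (2.41) and the kinesin *Kif17* (3.16) rose.

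Among genes that shape the sperm head, the actin-like ones were higher. Of 34 genes of the manchette, the microtubule skirt that shapes the nucleus, and the perinuclear theca, 12 were higher and 6 lower (median -0.03). The actin-related *Actrt1* (4.21), *Actrt3* (4.12) and *Actrt2* (3.69), calicin (*Ccin* (3.60)), *Tbc1d21* (3.86) and the SUN-domain genes *Spag4* (3.47), *Sun5* (3.24) and *Sun3* (2.11), which link the nucleus to the cytoskeleton, rose. Of the manchette genes themselves, *Hook1* (-0.82), *Katnal1* (-1.00), a katanin subunit, and *Cntrob* (-1.47), centrobin, fell, and *Rimbp3* (-0.22) and *Lrguk* (0.08) did not pass the test.

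About as many genes of sperm ion channels, transporters and kinases were higher as were not. Of 29 channel and transporter genes 15 were higher and 4 lower (median 1.25). *Lrrc52*, the auxiliary subunit of the sperm potassium channel, was at 2.79 and 2.83 in B6 and 5.44 and 2.16 in PWD in pachytene and at 8.46 and 8.63 in B6 and 8.04 and 8.59 in PWD in spermatids (log fold-change 5.13, standard error 0.61, adjusted p = 2.6e-04 from limma). The groups did not overlap, and PWD pachytene replicate 1 was the 1 pachytene array above the background level. Its channel *Kcnu1* (2.57), the calcium channel subunits *Catsper3* (3.31) and *Catsper1* (3.13), the sodium pump *Atp1a4* (3.90), the aquaglyceroporin *Aqp7* (3.55), *Slc36a3* (3.61) and *Plcz1* (3.50), the phospholipase that starts calcium oscillations in the egg, rose. *Catsperd* (-0.63), *Slc26a8* (-0.62) and *Slc22a21* (-0.84) fell by less than 1, and *Catsperg1* (-0.34) did not pass the test. Of 32 kinases and phosphatases 16 were higher and 10 lower (median 0.34). The testis-specific serine kinases rose, with *Tssk3* (3.85), *Tssk6* (3.85), *Tssk2* (3.43), *Tssk4* (3.25) and *Tssk1* (2.87), as did *Cdk16* (4.36), *Camk4* (4.30) and *Dusp21* (4.96). *Stk31* (-2.76), *Cdk20* (-1.75) and *Ptpn20* (-1.67) fell.

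Transcription regulators rose and fell in equal numbers. Of 37 regulators 14 were higher and 14 lower (median -0.02), with 17 and 13 under centring, 14 and 15 without PWD pachytene replicate 1 and 15 and 14 without either PWD prepachytene array. *Rfx1* (3.47), *Rfx3* (3.36), *Sox5* (3.46), *Hsfy2* (3.35), *Taf7l* (3.43), a testis TFIID subunit on Chr X, and *Fhl5* (3.47), the coactivator of CREM, rose by 3 or more. *Crem*, the cAMP-responsive activator of spermatid genes, had 10.87 and 10.71 in B6 and 11.11 and 10.80 in PWD in pachytene and 12.09 and 11.99 in B6 and 11.85 and 12.14 in PWD in spermatids (log fold-change 1.14, standard error 0.14, adjusted p = 3.6e-04 from limma), a smaller rise in a gene that was already at about 11. *Rfx2* (-0.02) and *Tbpl1* (-0.26), the TBP-like factor, were not called, with means of 14.98 and 14.72 for the latter. *Mybl1* (-2.02) (A-MYB), the activator of pachytene genes, *Sox30* (-1.98), *Atf4* (-2.22) and *Sp3* (-2.96) fell.

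Among the called members, genes of the ubiquitin system of spermatids were mostly higher and proteasome subunits mostly lower. Of 52 ligases, conjugating enzymes and deubiquitinases 24 were higher and 11 lower (median 0.35). *Rnf133*, a membrane-bound ligase of the testis, was at 8.40 and 8.29 in B6 and 8.91 and 7.94 in PWD before and at 12.98 and 13.01 in B6 and 12.00 and 12.48 in PWD after the divisions (log fold-change 4.23, standard error 0.21, adjusted p = 3.6e-06 from limma), without overlap. *Rnf148* (3.89), *Rnf151* (3.13), *Trim42* (5.28), *Fbxo24* (4.41), *Otub2* (4.02), *Klhl10* (2.83), an adaptor of Cullin 3, and the ER enzyme *Ube2j1* (1.80) rose, and *Cul4b* (3.62) of Chr X rose while its autosomal paralog *Cul4a* (-1.43) fell. *Siah1a* (-3.83), *Uba6* (-1.98), an activating enzyme, and *Ube2b* (-0.87), needed for late spermiogenesis, fell. Of 47 proteasome genes 5 were higher and 24 lower (median -0.37, and 11 and 19 under centring). *Psma8* (-2.51), the testis alpha subunit, *Pomp* (-2.31), the assembly chaperone, *Psmd14* (-2.18) and *Psmb1* (-1.71) fell, whereas *Psmd10* (3.63), encoded on Chr X, *Psme3* (2.89), a nuclear activator, and *Psmf1* (1.47), an inhibitor, rose. Of 44 autophagy genes 6 were higher and 16 lower (median -0.14), and the majority held under centring with 12 higher and 14 lower. *Atg12* (-2.09), which is conjugated to ATG5, the kinase *Pik3c3* (-1.71), *Epg5* (-1.83), *Tecpr1* (-1.83) and *Wdr45b* (-1.75) of later steps, and *Map1lc3b* (-0.83) (LC3B), which coats autophagosomes, fell. *Wipi1* (1.94), *Atg5* (0.87) and the cargo receptors *Nbr1* (1.10) and *Tax1bp1* (0.98) rose, and *Atg7* (0.22), *Gabarap* (-0.21) and *Gabarapl2* (0.26) did not pass the test.

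In energy metabolism, called glycolytic isozymes of sperm were mostly higher and called respiratory chain genes mostly lower. Of 16 germ cell glycolytic genes 7 were higher and 1 lower (median 0.24), with 3 lower without PWD spermatids replicate 2. *Gapdhs*, the sperm form of glyceraldehyde phosphate dehydrogenase, was at 9.37 and 9.13 in B6 and 9.90 and 8.77 in PWD in pachytene and at 13.22 and 13.15 in B6 and 12.33 and 12.78 in PWD in spermatids (log fold-change 3.58, standard error 0.27, adjusted p = 2.4e-05 from limma). All spermatid values were above the pachytene values, of which PWD replicate 1 was the highest. The aldolases *Aldoart1* (3.24) and *Aldoart2* (3.39), *Gpd2* (2.94) and *Hk1* (1.43) rose, *Pgk2* (1.06), the autosomal retrogene of X-linked *Pgk1*, rose from an already high level, *Ldhc* (-0.14) had means of 16.17 and 16.03, and the glucose transporter *Slc2a3* (-1.32) fell. Of 17 somatic isozymes 5 were higher and 3 lower (median 0.27, and 9 and 2 under centring), a majority that was lost without B6 pachytene replicate 2 or B6 spermatids replicate 1 (4 and 4 each), with *Pkm* (3.62), *Pfkfb3* (3.52), X-linked *Pgk1* (2.78) and *Aldoa* (1.82) up, *Pfkfb2* (-2.43), *Pfkfb4* (-1.42) and the muscle-type phosphofructokinase *Pfkm* (-0.50) down, and *Ldha* (-0.24) not called. Of 81 respiratory chain and ATP synthase genes 5 were higher and 43 lower (median -0.45, and 14 and 37 under centring). *Cox7c* (-3.51), *Sdhc* (-2.67), *Ndufc2* (-2.08) and *Sdhd* (-1.98) fell most, and the testis isoforms *Cox8c* (-1.07) and *Cox7b2* (-0.89) fell too. Of the cytochrome c genes the testis form *Cyct* (-1.37) fell and the somatic form *Cycs* (2.64) rose, and *Ndufb11* (3.39) of Chr X and the ATP synthase gene *Atp5g1* (0.70) rose, while the testis isoform *Cox6b2* (-0.18) did not pass the test. Of 42 genes of fatty acid oxidation and the TCA cycle 10 were higher and 13 lower (median -0.01, and 14 and 12 under centring). *Oxct2a*, which activates ketone bodies in sperm, had 7.04 and 6.86 in B6 and 7.16 and 7.09 in PWD in pachytene and 12.22 and 12.28 in B6 and 11.03 and 11.60 in PWD in spermatids (log fold-change 4.74, standard error 0.22, adjusted p = 2.8e-06 from limma), without overlap. *Fh1* (3.20), fumarase, *Etfb* (3.19) and *Suclg2* (1.79) rose and *Acadvl* (-2.09), for very long-chain fatty acids, and the carnitine carrier *Slc25a20* (-1.87) fell.

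Lipid and redox genes changed in both directions, with large gains of single enzymes. Of 47 genes of phospholipid and triacylglycerol synthesis 14 were higher and 15 lower (median 0.01, and 20 and 12 under centring), with equal numbers without PWD pachytene replicate 1 (16 and 16) or either PWD spermatid array (15 and 15). *Agpat2* (5.40), an acyltransferase, the elongases *Elovl6* (4.29) and *Elovl5* (3.98), *Gpat3* (3.30) and *Dgat2* (3.10), which makes triacylglycerol, rose, and *Gpat2* (-2.37) fell. Of 22 cholesterol genes 6 were higher and 7 lower (7 and 3 after quantile normalization again, and 8 and 4 under centring). Without B6 pachytene replicate 1 the counts were 5 and 3, without B6 spermatids replicate 2 they were 6 and 4, without PWD pachytene replicate 2 they were 5 and 4, and without PWD spermatids replicate 1 they were 7 and 4. They were 5 and 5 without PWD spermatids replicate 2 and 7 and 7 without either PWD prepachytene array, so that this list had no stable majority. The genes called included X-linked *Nsdhl* (3.25) and *Ebp* (1.13), *Cyp51* (3.09), *Fdps* (1.23) and *Sqle* (1.22) among those up and *Insig2* (-1.39), which retains the sterol sensor in the ER, among those down. Of 47 antioxidant genes 16 were higher and 8 lower (median 0.08, and 26 and 7 under centring). *Nqo2* (5.61), a quinone reductase, *Nfe2l2* (3.88) (NRF2), a regulator of antioxidant genes, *Prdx4* (3.82), an ER peroxiredoxin encoded on Chr X, and *Mgst2* (3.35) rose, and *Gclc* (-4.22) of glutathione synthesis and the methionine sulfoxide reductases *Msrb3* (-2.36) and *Msrb2* (-1.74) fell. *Txnrd3* (-0.09), the testis thioredoxin-glutathione reductase, did not pass the test and *Nqo1* (-0.02) was under the background level. Of 48 heat shock chaperones 14 were higher and 21 lower (median -0.30, and 19 and 17 under centring), and 9 were higher without B6 pachytene replicate 2, B6 spermatids replicate 2 or PWD spermatids replicate 2. Testis members rose, with *Dnajb7* (3.91), *Dnajb8* (3.73), *Hspa1l* (3.66), *Dnajc5b* (3.53), *Dnaja4* (3.29) and *Dnajb13* (1.99) and, in small steps, *Dnajb3* (0.56) and *Hspa4l* (0.43), while *Hspa14* (-3.57) and *Hspa8* (-1.07) and, in small steps, the chaperonin subunits *Cct8* (-0.58) and *Cct6a* (-0.74) fell. *Hspa2* (-0.35), the chaperone of meiosis, had means of 13.83 and 13.47.

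More genes of synapsis and cohesion were lower than higher. Of 30 genes of the synaptonemal complex, telomere attachment and cohesin 17 were lower and 6 higher (median -0.55). The lateral elements *Sycp3* (-1.90) and *Sycp2* (-1.88), the axis proteins *Hormad1* (-1.54) and *Stag3* (-0.55), the central element *Tex12* (-3.06) and the telomere adaptors *Terb2* (-3.85) and *Majin* (-2.60) fell. *Sycp1* (-0.15) of the transverse filaments and *Smc1b* (0.39) did not pass the test, and *Hormad2* (-0.51) fell from just above to just under the background level. The members that rose were the cohesins *Rec8* (3.64), *Stag2* (3.44) of Chr X, *Smc3* (2.92) and *Smc1a* (0.49), the last under the background level in both populations, and the central elements *Syce2* (2.31) and *Syce3* (1.35).

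Genes of recombination and break repair were mostly lower. Of 66 members 38 were lower and 10 higher (median -0.75). *Ccnb1ip1* (HEI10), which selects crossover sites, was at 9.07 and 8.74 in B6 and 8.94 and 9.98 in PWD in pachytene arrays and 2.86 and 2.86 in B6 and 3.87 and 4.34 in PWD in spermatid arrays (log fold-change -5.70, standard error 0.24, adjusted p = 1.8e-06 from limma). The populations did not overlap, the mean in spermatids was under the background level, and PWD had the higher spermatid values. *Mlh3*, which resolves crossovers, was at 9.37 and 9.88 in B6 and 9.46 and 9.78 in PWD in pachytene and at 4.34 and 5.52 in B6 and 6.45 and 6.65 in PWD in spermatids (log fold-change -3.88, standard error 0.29, adjusted p = 2.2e-05 from limma), also without overlap. *Ube2t* (-3.77) and *Palb2* (-2.72) of the Fanconi anaemia and BRCA pathways, the nuclease *Eme1* (-3.59), the checkpoint kinase *Atr* (-2.11) and *Topbp1* (-2.70), which act on unsynapsed chromatin, *Trip13* (-2.37) and the RPA subunits *Rpa1* (-1.82) and *Rpa2* (-2.09) fell, and *Spo11* (-1.44), which makes the breaks, fell less. *Brca2* (-0.06) did not pass the test. *Tex11* (3.49) of Chr X, *Tex15* (3.19), *Brca1* (2.68) and *Msh4* (1.88) rose, and *Dmc1* (0.69) was called higher but under the background level in both populations.

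Regulators of the divisions were mostly lower, with single members of the G2-M switch higher. Of 58 cyclins, kinases and mitotic effectors 34 were lower and 8 higher (median -0.65, and 31 and 13 under centring). *Cdk2*, the kinase of crossover sites and telomeres in spermatocytes, was at 10.99 and 10.52 in B6 and 10.22 and 10.69 in PWD in pachytene and at 6.17 and 6.21 in B6 and 6.52 and 6.19 in PWD in spermatids (log fold-change -4.33, standard error 0.18, adjusted p = 1.8e-06 from limma). No spermatid value reached a pachytene value. *Ccne2* (-4.63) and *Ccne1* (-1.11), the E cyclins, *Cks2* (-4.30), the CDK subunit needed for anaphase I, *Cdk1* (-2.26), *Ensa* (-2.91), condensin subunits such as *Ncapd3* (-2.71) and *Ncapg2* (-2.33), the kinesin *Kif2c* (-2.87), of which 2 other probesets rose, and *Aurkc* (-1.92), the meiotic Aurora kinase, fell, and *Aurka* (-0.66) fell less. The higher members were *Cdc25c* (2.55), the phosphatase that activates CDK1, *Wee1* (2.37), its opponent, *Mastl* (2.30), *Ccna2* (2.40), *Cdc25a* (1.06), *Kif23* (0.95), *Ccnb2* (0.54) and *Kif22* (0.55). *Ccna1* (-0.24), the male meiotic cyclin A, and *Plk1* (0.37) were not called, with means of 12.21 and 11.97 for *Ccna1*, and *Ccnb3* (0.04) was under the background level in both. Of 28 genes listed under the spindle checkpoint and separase 19 were lower and 5 higher (median -0.75). *Zwilch* (-4.01), *Sgo2a* (-3.95), the protector of centromeric cohesion, *Mad2l1* (-3.47), *Spdl1* (-2.32), *Bub1b* (-1.59), the kinase *Ttk* (-0.70), the activator *Cdc20* (-0.77), securin (*Pttg1* (-0.72)) and separase (*Espl1* (-0.91)) fell. The 5 that rose were *Tipin* (3.38), *Dscc1* (3.05), *Ckap5* (1.48), *Bub1* (0.72) and *Fzr1* (0.64). Of these, *Tipin*, which is also counted among the replication genes, and *Dscc1* are not members of the checkpoint itself. Of 16 genes of the anaphase-promoting complex 4 were higher and 6 lower (6 and 6 under centring), with the subunits *Anapc7* (-2.00), *Anapc1* (-1.97), *Anapc4* (-1.85) and *Anapc15* (-1.71) down and *Anapc10* (1.90), *Cdc16* (1.12) and the ubiquitin-conjugating enzyme *Ube2c* (0.70) up.

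*Cenpo*, a protein of the constitutive centromere complex, had one of the largest falls on the array. It was at 12.18 and 12.20 in B6 and 12.59 and 12.72 in PWD in pachytene and at 6.25 and 6.44 in B6 and 6.53 and 5.64 in PWD in spermatids (log fold-change -6.20, standard error 0.22, adjusted p = 1.1e-06 from limma). Within each population the 4 values lay within 1 log2 unit, and its promoter with 14 CG pairs is shown above. Of 37 centromere and kinetochore genes 19 were lower and 5 higher (median -0.42), with *Mis18a* (-4.01), which licenses new CENP-A, *Cenpq* (-3.27), *Cenps* (-2.84) and *Nsl1* (-2.59) down and X-linked *Cenpi* (3.46), *Cenpk* (1.30) and *Cenpm* (1.09) up. Of 59 replication genes 32 were lower and 8 higher (median -0.74). *Cdc7* (-3.56), *Gmnn* (-3.51) (geminin), *Pole3* (-3.42), *Timeless* (-3.24) and *Dna2* (-3.13) fell, whereas *Tipin* (3.38), the partner of TIMELESS, *Orc1* (2.69) and *Mcm8* (2.04) rose.

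Among chromatin regulators the largest fall above the background level was that of *Sap30*. It was at 11.65 and 11.50 in B6 and 12.53 and 12.92 in PWD in pachytene and at 4.74 and 4.83 in B6 and 7.10 and 7.52 in PWD in spermatids (log fold-change -6.10, standard error 0.25, adjusted p = 1.7e-06 from limma), with no overlap and with higher values in PWD than in B6 in both populations. Of 58 genes of Polycomb, H3K9 methylation and deacetylase complexes 23 were lower and 12 higher (median -0.42, and 20 and 20 under centring). *Rnf2* (-4.13), the Polycomb ubiquitin ligase, *L3mbtl2* (-3.74), *Pcgf6* (-3.11) and *Brms1l* (-3.16) fell, and *Scml2* (3.65) of Chr X, *Suv39h2* (3.55), the testis H3K9 methyltransferase, and *Gatad2b* (3.12) rose. Of 60 genes of histone acetylation, bromodomains and remodelling 37 were lower and 6 higher (median -0.80). *Baz2b* (-4.75), *Baz1a* (-4.10), *Kat6b* (-3.49), *Brwd1* (-3.08) and the SWI/SNF ATPase *Smarca4* (-2.09) fell, and *Cdyl* (3.53), *Kat2b* (3.45) (PCAF), *Hat1* (2.18) and *Crebbp* (1.99) rose. *Dnmt1*, the maintenance DNA methyltransferase, had the lowest log fold-change of the 18193 genes. It was at 9.97 and 10.11 in B6 and 9.74 and 10.70 in PWD in pachytene and at 3.24 and 3.18 in B6 and 4.44 and 3.42 in PWD in spermatids (log fold-change -6.56, standard error 0.31, adjusted p = 3.1e-06 from limma), without overlap and with the mean of spermatids under the background level. Of 21 genes of DNA methylation 8 were lower and 4 higher (median -0.35). *Uhrf1* (-1.62), which recruits DNMT1, *Hells* (-1.94) and the methyl-CpG proteins *Mbd1* (-3.90) and *Mbd3* (-1.63) fell, *Dnmt3a* (1.38), *Dnmt3l* (2.88), *Mbd2* (1.40) and *Tet1* (1.18) rose, and *Dnmt3b* (-0.38) was under the background level.

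The piRNA pathway, which makes small RNAs of PIWI proteins that are abundant in pachytene, had mostly lower members. Of 36 members 23 were lower and 3 higher (median -0.93, and 21 and 7 under centring). *Piwil1* (MIWI), which binds pachytene piRNAs, was at 12.51 and 12.44 in B6 and 11.72 and 12.23 in PWD in pachytene and at 8.41 and 8.40 in B6 and 8.83 and 8.96 in PWD in spermatids (log fold-change -3.58, standard error 0.27, adjusted p = 2.3e-05 from limma), without overlap. *Piwil2* (-2.31), *Tdrd5* (-4.60), *Mov10l1* (-2.10), the helicase of precursor transcripts, *Pld6* (-2.52) and *Pnldc1* (-2.52), nucleases of biogenesis, *Prmt5* (-3.37), and the Argonautes *Ago4* (-3.95) and *Ago2* (-2.44) fell. The germ granule components *Ddx4* (0.04) (MVH), *Ddx25* (0.07) and *Mael* (-0.13) did not pass the test and were above 14 in both populations. The 3 higher members were *Gtsf1l* (3.66), *Kif17* (3.16) and *Rnf17* (1.24).

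In RNA synthesis and processing most called members were lower. Of 104 spliceosome and splicing factor genes 70 were lower and 12 higher (median -1.16, and 65 and 21 under centring), the lowest median of the 45 lists. *Casc3* (-3.97), *Lsm3* (-3.81), *Hnrnpa2b1* (-3.53), *U2af1* (-3.25), *Srsf3* (-3.24), *Slu7* (-3.11) and *Srsf1* (-2.59) fell, *Hnrnph2* (2.21) and *Rbmx* (2.20), which lie on Chr X, and *Bcas2* (1.66) rose, and *Rbmxl2* (-0.15), the testis retrogene of *Rbmx*, did not pass the test. Of 83 genes of RNA polymerase II, general factors and Mediator 40 were lower and 12 higher (median -0.36, and 40 and 20 under centring). *Gtf2e1* (-4.99), *Taf2* (-4.81), *Med17* (-4.09), *Cdk9* (-3.53) and the polymerase subunits *Polr2d* (-3.00) and *Polr2b* (-2.39) fell, and the elongation factors *Ell2* (3.59) and *Tcea1* (2.83) and *Med21* (2.59) rose. Of 62 nucleoporins and transport receptors 17 were higher and 28 lower (median -0.02, and 28 and 25 under centring). *Nxf2* (4.44), an mRNA export factor on Chr X, *Nup160* (3.25) and *Rangap1* (2.81) rose and *Tnpo2* (-3.19), *Ipo8* (-3.18) and *Kpna3* (-2.65) fell, while *Ipo5* (1.31) and *Nup50* (0.86) rose, *Kpna6* (-0.25) fell slightly and *Kpna2* (0.06) did not pass the test. Of 22 genes of the lamina and its partners 8 were higher and 8 lower (10 and 6 under centring, 7 and 6 without B6 pachytene replicate 1, PWD pachytene replicate 2 or PWD spermatids replicate 2, 8 and 6 without PWD pachytene replicate 1, and 8 and 7 without either PWD prepachytene array), with *Lbr* (-4.49), the lamin B receptor, *Sun1* (-1.73) and *Lemd3* (-1.66) down, and *Lmnb2* (3.46) and *Lmnb1* (0.61), the B-type lamins, X-linked *Emd* (3.33) (emerin) and *Tor1aip1* (3.20) up, and with *Lmna* (-0.39) not called.

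Factors that control stored mRNA went in both directions, with shares not far from those of all genes above the background level. Of 44 RNA-binding and translation factors 20 (45.5%) were lower and 9 (20.5%) higher (median -0.24, and 18 and 14 under centring). Of the genes above the background level 39.3% were lower and 25.6% higher. *Paip1*, which joins poly(A)-binding protein to the initiation complex, was at 9.79 and 9.60 in B6 and 10.52 and 11.52 in PWD in pachytene and at 2.58 and 2.89 in B6 and 5.18 and 4.95 in PWD in spermatids (log fold-change -6.46, standard error 0.23, adjusted p = 1.1e-06 from limma). The groups did not overlap, B6 spermatids were under the background level and PWD spermatids about 1 above it. The inhibitors of poly(A)-binding protein, *Paip2* (1.15) and *Paip2b* (2.58), rose. *Cpeb2* (-3.33), *Celf1* (-3.13), *Lsm14b* (-3.02), *Boll* (-1.88) and *Pabpc1* (-0.33) fell, the translational repressor *Samd4* (3.56), *Igf2bp1* (3.30) and *Dazl* (1.15) rose, and *Ybx2* (-0.23) (MSY2), which coats stored transcripts, and *Eif4g3* (0.09) were not called. Of 50 ribosomal protein genes 26 were lower and 1, X-linked *Rps4x* (2.21), was higher (median -0.38, and 15 lower and 6 higher under centring). Without PWD pachytene replicate 2 as well 15 were lower, and most of the lower ones changed by less than 1. *Rps25* (-2.34) and *Rpl10a* (-2.21) fell by more than 2, *Rps3* (-1.49), *Rpl4* (-1.31) and *Rpl22* (-1.08) by more than 1, and *Rpl39l* (-0.18) and *Rpl22l1* (0.02), ribosomal protein paralogs, did not pass the test.

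Genes of the secretory pathway were mostly lower. Of 61 genes of COPI and COPII coats and Golgi tethers 37 were lower and 10 higher (median -0.66, and 37 and 17 under centring). *Sec23a*, the inner COPII coat, was at 10.37 and 9.94 in B6 and 10.14 and 11.25 in PWD in pachytene and at 4.55 and 3.66 in B6 and 5.48 and 6.20 in PWD in spermatids (log fold-change -5.45, standard error 0.31, adjusted p = 6.1e-06 from limma). All spermatid values were lower than all pachytene values, with B6 below PWD, whereas its paralog *Sec23b* (1.04) rose, as did *Sec24b* (1.32) and *Bet1* (1.14), and *Preb* (-2.66), which activates SAR1, *Rab27a* (-2.47), *Arfgap2* (-2.41), *Trip11* (-2.19), *Vps54* (-1.83), a tether needed for acrosome formation, and *Golga3* (-0.47) fell. *Sec23ip* (0.27) was not called. Of 63 genes of ER folding and secretion 34 were lower and 10 higher (median -0.50). *Xbp1* (-4.02), the regulator of the unfolded protein response, *Tmed10* (-3.89), *Sel1l* (-3.53) and *Syvn1* (-3.29) of ER-associated degradation fell, and the germ cell chaperones *Calr3* (3.81) and *Pdilt* (3.16) and the signal peptidase subunit *Sec11c* (2.58) rose. Of 57 components of the Wnt, Notch, Hedgehog and TGF-beta pathways 10 were higher and 18 lower (22 and 15 under centring), with *Dact1* (-5.90), a Wnt antagonist, *Acvr1b* (-3.76) and *Rbpj* (-2.70) down and *Sufu* (3.66), *Smad6* (3.59) and *Gsk3b* (3.08) up. Of 42 apoptosis regulators 11 were higher and 12 lower (20 and 11 under centring, 11 and 11 without PWD spermatids replicate 1, and 12 and 12 without PWD spermatids replicate 2 or either PWD prepachytene array), with *Bcl2l14* (3.17), *Fasl* (3.05) and *Mdm2* (1.90), the ligase of p53, up and *Pmaip1* (-2.05) and *Parp1* (-2.04) down. Of 10 genes of antigen presentation *H2-K1* (-1.36) and *Tapbp* (-1.21) were lower and *Nlrc5* (1.00) higher, a majority that ended after quantile normalization again (2 higher and 2 lower) and turned under centring (4 and 2).

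Called genes of the X chromosome were almost all higher. Of 617 X-linked genes 201 (32.6%) were higher and 4 (0.648%) lower in spermatids, whereas the autosomes ranged from 14% (Chr 11) to 21.1% (Chr 12) higher and from 19.7% (Chr 7) to 28.4% (Chr 5) lower. Of the 293 X-linked genes above the background level 63.5% were higher, and their median log fold-change was 2.20, against -0.38 to -0.11 on the autosomes. The 4 lower genes were *Lage3* (-0.76), *Brcc3* (-0.58), *Xiap* (-0.55) and *Magea7-ps* (-0.10), of which *Lage3* and *Xiap* were above the background level in both populations. Among the higher ones were many genes of general function, with *Cdk16* (4.36), *Usp9x* (3.68), *Huwe1* (3.64), *Utp14a* (4.73) and *Med12* (2.09), next to genes of the germ line. Of 9 Y-linked genes 6 were higher and 0 lower.

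**Figure D5:**
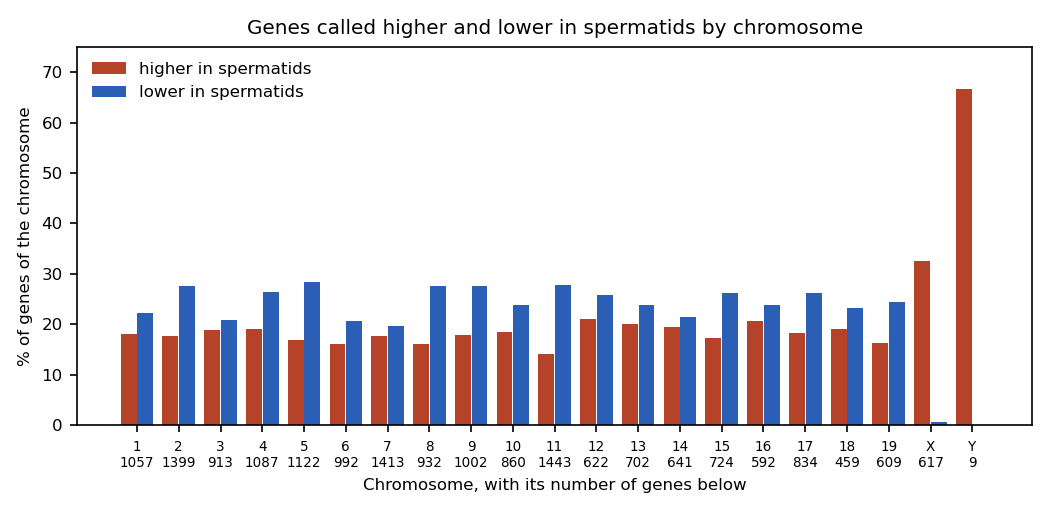
Percentage of the genes of each chromosome (vertical axis) that were higher (red) or lower (blue) in spermatids than in pachytene spermatocytes, with the number of genes under each chromosome. The autosomes lie between 14% and 28.4% for both directions, whereas Chr X has 32.6% higher and 0.648% lower genes.

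Of 29 sex-linked genes of spermatids 22 (75.9%) were higher and 0 lower (median 3.06). Among all X-linked genes above the background level 63.5% were higher (median 2.20), so that the share of the list is not far from that of the chromosome. The higher genes of the list included *Akap4* (3.70), *Actrt1* (4.21), *Cylc1* (3.42), a protein of the perinuclear theca, *Fmr1nb* (3.79), *Ctag2* (3.62), *Tsga8* (3.06) and *Tex13a* (3.84) of Chr X, and *Zfy2* (2.64), *Uba1y* (3.06) and *Usp9y* (4.23) of Chr Y. Several belong to families of near-identical copies whose probes could share signal. Of 7 autosomal retrogenes of X-linked genes 2, *Pgk2* (1.06) and *G6pd2* (2.21), were higher and 2, *Cstf2t* (-2.10) and *Cetn1* (-0.49), lower (2 and 1 under centring), while *Utp14b* (0.29) and *Pdha2* (-0.28) were not called. With *Rbmxl2* from the splicing list, 6 pairs of an X-linked parent and its retrogene were compared, and the log fold-change of the parent was the larger in each. X-linked genes above the background level had a median of 2.20, against -0.38 to -0.11 on the autosomes. The same order would thus be common in any pair of an X-linked and an autosomal gene, and it is no result about retrogenes. The pairs did not include *G6pd2*, the retrogene of the list with the largest rise. The log fold-change was 2.78 for *Pgk1* against 1.06 for *Pgk2*, 4.73 for *Utp14a* against 0.29 for *Utp14b*, 3.44 for *Cstf2* against -2.10 for *Cstf2t* and 3.38 for *Cetn2* against -0.49 for *Cetn1*. It was 2.20 for *Rbmx* against -0.15 for *Rbmxl2* and 0.06 for *Pdha1*, which was not called, against -0.28 for *Pdha2*. The differences were not tested.

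The change was seen in each strain. In B6 alone 3157 genes (17.4%) were higher and 3307 (18.2%) lower, and in PWD alone 2531 (13.9%) and 3846 (21.1%). Over both strains 7649 genes (42.0%) were called, of which 7329 (95.8%) had the same direction in each strain. In the separate comparisons 1988 genes were higher and 2709 lower in both strains, and 54 were called in opposite directions. The test of strain dependence called 847 genes (4.66%), and those among the genes named here are given in the closing section. The list medians followed each other in the 2 strains, with 3.17 in B6 and 2.54 in PWD for the acrosome and with -1.01 and -1.26 for splicing factors. Leaving out any single array changed the majority direction in none of the 45 functional lists with at least 1.5 times as many members in one direction as in the other, except that of somatic glycolytic isozymes, in which 4 members were higher and 4 lower without B6 pachytene replicate 2 or without B6 spermatids replicate 1.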

How the data were processed

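RNA of sorted germ cells was hybridized to Affymetrix mouse whole-genome arrays, and the deposited table holds log2 expression values that the authors background-corrected and normalized (GCRMA per the submitters' processing notes, version not given in the sources used here, whereas the study's methods name RMA for another array type and no method for this one, so that the normalization is not settled). Of 45101 probesets 64 controls were left out and 45037 were tested, of which 34945 named exactly 1 gene in the platform annotation updated through RefSeq (GRCm38.p6), 932 several and 9160 none, and 204 of the former were not found in RefSeq. Each of 18193 genes was read at the probeset of 1 gene with the highest mean over the 12 arrays.

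The arrays were grouped by their labels. The 6 group means were fitted in limma 3.58.1 (R 4.3.3, eBayes with trend), and the contrast was the mean of B6 and PWD spermatids minus that of B6 and PWD pachytene spermatocytes, two-sided, with Benjamini-Hochberg adjustment over all probesets and a threshold of 0.05. The arrays of 1 group correlated at 0.987 to 0.996, and scripts were tested on simulated data. Depth does not apply to arrays, whose number limits the precision. The background level was taken from genes of other organs.

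The members and the 53 gene lists were chosen with earlier results of these data known, so that shares of list members are set beside those of all genes above the background level and no list was tested. The genes named were the 20 highest and 20 lowest log fold-changes above the background level without overlap of arrays, the 6 called members of each list with the largest change, up to 3 called against its majority, fixed key members whatever their values, and genes on which a count of 5 or fewer rests, and further members were named for their role after their values were seen. Alternatives changed the arrays, scaling, filter, variance prior, threshold, block and probeset of a gene. Analyses used Python 3.11.15 with pandas 2.3.3 and matplotlib 3.10.9. Scanner files were not used here.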

Additional observations from a re-analysis of the deposited data

Results flagged for a closer look

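Of the genes named, 21 were called in the test of strain dependence, in which the log fold-change between spermatids and pachytene spermatocytes in PWD was compared with that in B6 (limma, adjusted p under 0.05, against 4.66% of all genes), and each group had 2 arrays. The differences are in array signal, and whether the probes match PWD and B6 sequence equally was not tested. Of 18 sperm chromatin genes 2 were called, both with the smaller rise in PWD, with a difference (PWD minus B6) of -1.59 for *Tnp2* (6.05 in B6 and 4.45 in PWD) and -1.23 for *Prm2* (4.71 and 3.48). The rise was also smaller in PWD for *Bbs12* (difference -2.38, 3.60 in B6 and 1.22 in PWD), *Rfx3* (-1.86, 4.29 and 2.43), *Ube2j1* (-1.38, 2.49 and 1.11), *Cdc16* (-1.41, 1.82 and 0.41), *Tax1bp1* (-0.98, 1.47 and 0.49) and *4933400A11Rik* (-1.77, 5.57 and 3.80).

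*Dnmt3l*, the cofactor of de novo DNA methylation, had a pachytene mean under the background level, so that its sizes are approximate. It rose in B6 (5.27) and was not called in PWD (0.49), with a difference of -4.78 (standard error 0.49, adjusted p = 0.0015 from limma), the largest of these. *Nlrc5*, the activator of MHC class I genes, had the same form at a low level (-2.03, 2.02 and -0.01), and *H2-K1* fell in B6 (-2.37) and was not called in PWD (-0.34, difference 2.03). *Atg5* was called in PWD (1.76) and not in B6 (-0.02, difference 1.78). *Msrb2* fell in PWD (-3.63) and was not called in B6 (0.14, difference -3.77), and *Xiap* likewise (-1.23, 0.13 and -1.37). The fall was larger in B6 for *Rnf2* (difference 3.02, -5.64 in B6 and -2.63 in PWD), *Tdrd5* (2.07, -5.64 and -3.56), *Mbd1* (1.92, -4.86 and -2.94), *Rpl10a* (1.59, -3.00 and -1.42) and *Rnase10* (1.45, -1.47 and -0.03), and larger in PWD for *Rpa1* (-1.28, -1.18 and -2.46). *Magea7-ps*, under the background level, differed by -0.30 (0.05 and -0.25).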

How the results depend on the processing

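Centring the arrays on probesets above the background level moved the counts to 22882 probesets and 8654 genes higher and 7234 and 3824 lower, of which 3317 and 3813 genes were called in the same direction as reported and 3 in the opposite one. A log fold-change of at least 1 as a further threshold left 5376 probesets and 2750 genes lower, and 3891 and 2476 higher. The other settings kept the 4 counts within 1.5 times. They were an additive fit on the 8 arrays (2703 genes higher and 3904 lower), quantile normalization again (3725 and 3976), group means on the 8 arrays, 2 filters on low values, another and a robust variance prior, an adjusted p under 0.01, the mean of all probesets of a gene, and array weights, chosen after seeing the data. Leaving out 1 array at a time gave 2987 to 3538 genes higher and 3903 to 4466 lower, and 4859 to 6139 probesets higher and 7397 to 8597 lower. Samples with the same replicate number did not deviate together (correlations of -0.17 in PWD and 0.07 in B6). With 1 difference between replicates in each group this cannot decide whether the numbers pair the samples by animal. With a replicate block by number 3256 genes were higher and 4257 lower, with a block by strain and number 3234 and 4235, and with the numbers of PWD spermatids crossed, a pairing chosen after seeing the data, 3175 and 4103.

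Among the 529 genes named, 419 kept their call and direction in every setting. Centring reversed *Amh* (0.24), *Fshr* (0.24), *Nqo1* (0.23) and *Magea7-ps* (0.15). With the mean of all probesets the sign turned for *Atg7* (-0.39), *Bcas2* (-0.13), *Bet1* (-0.38), *Bub1* (-0.23), *Cpeb4* (0.22), *Dazl* (-0.061), *Hspa4l* (-1.66), *Hydin* (0.53), *Ipo5* (-0.38), *Kif2c* (0.49), *Kpna6* (0.87), *Nup50* (-0.67), *Pfkfb2* (0.90), *Ppm1b* (-2.12), *Psmf1* (-0.58), *Rab27a* (0.0064), *Rnf138* (-1.92), *Rnf17* (-0.099), *Sec23ip* (-0.98), *Sox6* (-1.29), *Sun1* (0.58) and *Ube2b* (0.13). Leaving out 1 array ended the call of 20 genes in at least 1 case, with the number of such arrays in parentheses, for *Acr* (4), *Atp5g1* (9), *Brcc3* (9), *Cct8* (1), *Cdc25a* (2), *Cox7b2* (1), *Cyp17a1* (10), *Dnajb3* (9), *Ebp* (6), *Hormad2* (9), *Hspa4l* (8), *Ift88* (2), *Kif23* (6), *Kpna6* (7), *Lage3* (4), *Odf2* (5), *Pabpc1* (5), *Smc1a* (6), *Wbp4* (5) and *Xiap* (6). The arrays were B6 spermatids replicate 2 for *Cct8*, B6 pachytene replicate 1 for *Cox7b2*, B6 or PWD pachytene replicate 2 for *Cdc25a*, and B6 pachytene replicate 1 or PWD pachytene replicate 2 for *Ift88*. Of 104 counts of list members, centring moved 25 and the size threshold 34 by over 1.5 times. The number of arrays limits the precision, and values under the background level are approximate in size.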

Other observations

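Some genes had probesets that moved far apart, a pattern looked for after the values were seen. In 20 genes 1 probeset above the background level had a log fold-change of at least 2 and another one of -2 or less, and both were called. They included *Cpeb4*, a cytoplasmic polyadenylation factor, with -2.32 and 3.04, *Sox6*, a transcription factor, with -2.84, -2.56, -2.24 and 2.49, *Mtfr1*, a mitochondrial protein, with -4.62 and 2.04, and *Rnf138*, a ubiquitin ligase of DNA repair, with -4.21, -3.65 and 2.11. In *Cpeb4* and *Mtfr1* the brightest probeset fell, and in *Sox6* and *Rnf138* it rose. The transcript each probeset reads was not tested.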
